A study of Mus musculus with 36 samples.

Results

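Fc(mML1)B3, a Met agonist, was compared with Fc in the livers of mice on the standard diet. The 2 groups, 7 mice given Fc(mML1)B3 and 9 given Fc, make up 16 of the 36 liver libraries of the series and were assigned by the labels of diet and treatment. All 16 were male C57BL/6J mice, bought at 7 weeks of age and acclimated for 1 week, that had eaten the CDAHFD, a choline-deficient, methionine-restricted high-fat diet that induces steatohepatitis and fibrosis, for 12 weeks. Their food was changed to a standard diet 1 day before treatment. Injections were subcutaneous on days 1, 4 and 7, with Fc at 4.3 mg/kg or Fc(mML1)B3 at 5 mg/kg, and the livers were taken after 10 days. Fc is the crystallizable fragment of human IgG1, and Fc(mML1)B3 is the same fragment carrying mML1, a Met-binding macrocyclic peptide, in its loop B3. The fatty liver diet, the change of diet and the Fc were thus common to both groups, and the treatments differed by the grafted peptide and slightly in dose. The time of day at which the livers were taken is not given in the sources used here.

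Met is the receptor tyrosine kinase for hepatocyte growth factor (HGF). In the liver, HGF comes mainly from stellate and endothelial cells and acts on hepatocytes, where Met signals through the adaptor Gab1 to the Erk and Akt pathways. The pathway is known for driving liver regeneration and for protecting hepatocytes from injury. RNA from whole liver tissue mixes hepatocytes with the other cells of the organ, so that fewer cells of a type and less RNA per cell of that type cannot be told apart in any of the values that follow.

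Total counts were 19085473 to 25477135 per library in the Fc group and 24772468 to 28466853 in the Fc(mML1)B3 group, each a separate mouse. Levels are given in CPM, the read counts of a gene scaled to a common library size after TMM normalization, and fold changes are Fc(mML1)B3 over Fc on the log2 scale. An adjusted p is that of edgeR's quasi-likelihood F-test with Benjamini-Hochberg adjustment over all 13570 genes tested, and a gene is said to have risen or fallen where it is below 0.05. The S numbers in the names of the deposited files form a low run with 5 Fc libraries and a high run with the other 4 Fc libraries and all 7 Fc(mML1)B3 libraries, and values within the high run (4 against 7 mice) are given where a named gene that passed over the 16 libraries did not pass there. What the numbers stand for is not given in the sources used here, and the runs are confounded in part with the treatment. Among the Fc libraries, no gene passed between the runs with edgeR, although 1174 of 13521 had an unadjusted p below 0.05. Markers of hepatocytes were at summed levels of 118074 to 149590.1 CPM in the Fc group and 124650.2 to 139409 CPM in the Fc(mML1)B3 group, so that the liver label holds. Counting ignored strand, so reads of a gene and of an overlapping gene on the opposite strand cannot be told apart, which applies to 19 of the genes named here, among them Dbp, Elovl3, Eps8l2, Atf5, Irs2, Srebf1, Nr1i3, Nrg4, Tjp3 and Pdia6. Fc mouse 5 had the highest value of its group in 25 of 29 acute phase genes and in 11 of 11 neutrophil markers, and list counts and medians that rest on it are given without it.

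Across all genes tested, 1024 genes (7.55%) fell and 1162 genes (8.56%) rose. With a fold change over 1.5 as well, 178 genes (1.31%) were lower and 1.05% of the genes tested were higher, so most of the differences were small, with a median size of 0.298 on the log2 scale among the genes that passed. The median log2 fold change over all genes tested was -0.0112. For 393 genes (2.9%), the values of the groups did not overlap, with all 7 Fc(mML1)B3 mice above all 9 Fc mice for 237 genes and below them for 156. Within the high run, 424 genes fell and 518 rose, of which 103 and 102 also had a fold change over 1.5. The part that the smaller number of mice has in this difference was not tested. A gene is called lost without 1 library where its adjusted p reaches 0.05 in a fit that leaves that library out.

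**Figure D1:**
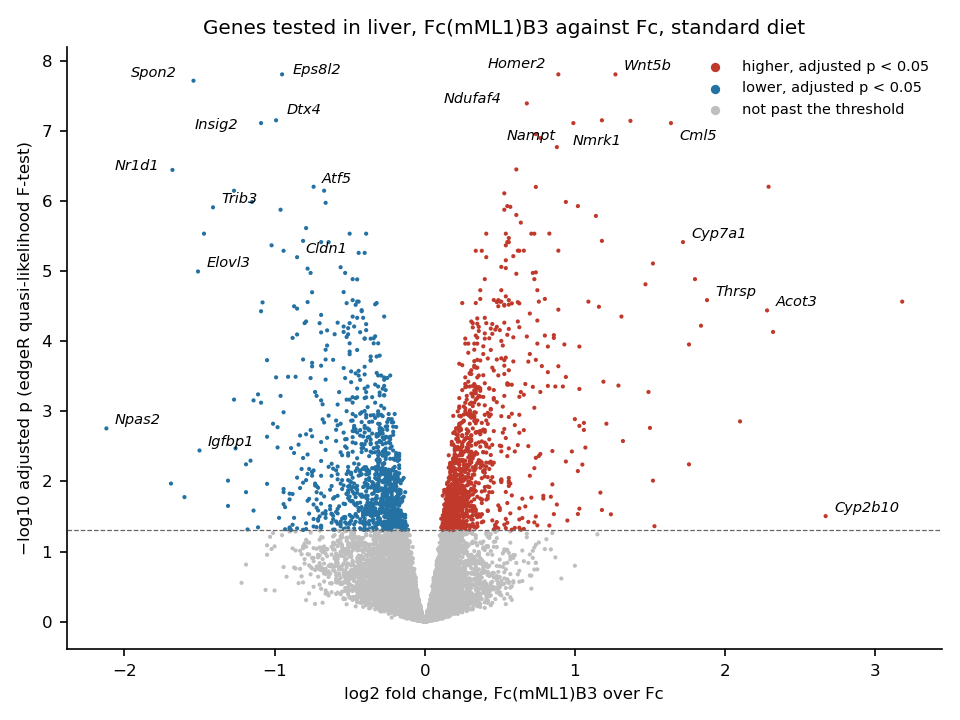
Each point is 1 of the 13570 genes tested, with its log2 fold change (Fc(mML1)B3 over Fc) on the horizontal axis and −log10 of its adjusted p on the vertical axis. Genes past an adjusted p of 0.05 (dashed line) are red where higher (1162) and blue where lower (1024), and Cyp2b10 combines a large fold change with a p close to the threshold.

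The higher genes with the smallest p span scaffolds, enzymes and transporters. Homer2, a scaffold protein of calcium signalling (chromosome 7 of mm10, 81600481 to 81706925), ranged from 21.6 to 27.6 CPM (median 24.4) in the Fc group and from 40.01 to 53.9 CPM (median 45.5) in the Fc(mML1)B3 group (log2 fold change 0.89, SE 0.06, adjusted p = 1.56e-08). Ndufaf4, which assembles complex I of the respiratory chain, ranged from 28.02 to 34.9 CPM (median 30.6) in the Fc group and from 44.7 to 53.5 CPM (median 50.1) in the Fc(mML1)B3 group (log2 fold change 0.68, SE 0.05, adjusted p = 4.05e-08). For both, every Fc(mML1)B3 mouse lay above every Fc mouse. The other higher genes of this kind, with log2 fold changes in brackets, were Wnt5b (1.27), the acetyltransferase homologue Cml5 (1.64), the vitamin B6 kinase Pdxk (0.74), the creatine transporter Slc16a12 (0.77) and the membrane protein Marveld1 (0.88), with Nmrk1 and Nampt described further on. The lower genes with the smallest p included Eps8l2, the secreted matrix protein Spon2 (-1.54), the Deltex ubiquitin ligase Dtx4 and the uncharacterised gene 3010026O09Rik, which ranged from 7.36 to 10.6 CPM (median 9.03) in the Fc group and from 2.68 to 5.00 CPM (median 3.58) in the Fc(mML1)B3 group. Insig2, Nr1d1 and Atf5 are described further on. Sh3pxd2a, the podosome scaffold Tks5, was at -0.67 (0.06 SE), Gas7 at -1.15 (0.11 SE) and Fam20a, a partner of the secretory kinase Fam20c, at -0.66 (0.06 SE). The genes named here among the 10 in each direction with the smallest p and a fold change over 1.5 had groups that did not overlap.

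Among the larger fold changes, 4 genes outside the lists were chosen after their values were seen. Tsku, which encodes the secreted hepatokine tsukushi, ranged from 46.5 to 141.1 CPM (median 70.7) in the Fc group and from 136.6 to 402.8 CPM (median 297.9) in the Fc(mML1)B3 group (log2 fold change 1.80, SE 0.22, adjusted p = 1.3e-05). Mthfd1l, an enzyme of mitochondrial one-carbon metabolism, ranged from 2.33 to 6.42 CPM (median 3.70) in the Fc group and from 9.85 to 12.5 CPM (median 10.6) in the Fc(mML1)B3 group (log2 fold change 1.52, SE 0.18, adjusted p = 7.77e-06), and its groups did not overlap. Nrep ranged from 13.7 to 52.7 CPM (median 20.7) in the Fc group and from 40.8 to 133.9 CPM (median 88.2) in the Fc(mML1)B3 group (log2 fold change 1.84, SE 0.26, adjusted p = 6e-05). Tnnc1, cardiac troponin C, was a low gene in liver, with a median of 0.410 CPM in the Fc group and 2.33 CPM in the Fc(mML1)B3 group (log2 fold change 2.29, SE 0.21, adjusted p = 6.25e-07).

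The circadian clock genes moved in both directions. In liver, CLOCK or NPAS2 pairs with BMAL1, encoded by Arntl, and binds E-boxes in the promoters of the Per and Cry genes, whose proteins repress the pair. REV-ERBα, encoded by Nr1d1, represses Arntl, Clock and Npas2, and DBP, TEF, HLF and NFIL3 act on D-boxes. Of the 34 clock genes tested in 3 lists, 15 rose and 9 fell, a larger share in either direction than the 8.56% and 7.55% of all genes. The lists were written with earlier results of these data known, so these counts are a description.

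The promoter windows below show the E-boxes (CACGTG) and the D-box (TTATGNAA) that the search found in 3 clock repressor genes that rose, from RefSeq on GRCm38.p6, each written 5′ to 3′ on the gene's strand, with the motifs in capitals and 12 bases on either side of the outermost motifs. Ciart, which encodes the repressor CHRONO, is on the minus strand at chr3:95882255-95882356, Cry1 on the minus strand at chr10:85185097-85185126 and Per1 on the plus strand at chr11:69098771-69098944.
Ciart: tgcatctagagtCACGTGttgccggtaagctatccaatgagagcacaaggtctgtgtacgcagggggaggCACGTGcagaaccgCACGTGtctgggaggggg
Cry1: ggtgccggtggtCACGTGgggtgcatgccg
Per1: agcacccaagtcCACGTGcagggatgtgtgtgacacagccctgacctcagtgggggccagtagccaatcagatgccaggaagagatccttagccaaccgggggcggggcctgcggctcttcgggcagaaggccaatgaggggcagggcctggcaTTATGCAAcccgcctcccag
Both strands of the 250 bases before the first listed start were searched, and no motif overlapped another. An E-box was in 5 of the 27 clock genes with a promoter in the table (18.5%), namely Ciart with 3, Cry1, Per1, Bhlhe41 and Tef, beside 8.3% of the promoters of all genes tested and 6.05% of all 27025 promoters. A D-box was in 2 of the 27, Per1 and Per3 (7.41%), beside 2.12% of the promoters of all genes tested and 3.23% of all promoters. Of these 6 genes, 5 rose and Bhlhe41 fell. A match is a description of the letters in the window and does not show that a factor binds there.

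On the activating side, Clock ranged from 34.8 to 50.3 CPM (median 40.6) in the Fc group and from 22.7 to 30.2 CPM (median 24.7) in the Fc(mML1)B3 group, and the groups did not overlap (log2 fold change -0.69, SE 0.08, adjusted p = 3.85e-06). Its partner Arntl ranged from 2.25 to 6.31 CPM (median 3.55) in the Fc group and from 0.896 to 3.31 CPM (median 1.46) in the Fc(mML1)B3 group (log2 fold change -1.05, SE 0.27, adjusted p = 0.0108), and 5 of 7 Fc(mML1)B3 mice lay below every Fc mouse. Arntl was not past the threshold within the high run (-0.76, adjusted p = 0.171). Npas2, the homologue of Clock, had the largest decrease of the 3 but was near the detection limit, with a median of 0.885 CPM in the Fc group and 0.164 CPM in the Fc(mML1)B3 group (log2 fold change -2.12, SE 0.42, adjusted p = 0.00175).

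On the repressing side, the Per and Cry genes and Nr1d1 parted. Nr1d1 ranged from 99.6 to 156.0 CPM (median 129.7) in the Fc group and from 26.8 to 62.5 CPM (median 35.3) in the Fc(mML1)B3 group (log2 fold change -1.68, SE 0.15, adjusted p = 3.6e-07), with no overlap. Per2 ranged from 19.9 to 33.5 CPM (median 25.8) in the Fc group and from 43.7 to 82.6 CPM (median 52.7) in the Fc(mML1)B3 group (log2 fold change 1.18, SE 0.13, adjusted p = 3.7e-06), again with no overlap. Cry1 rose by 1.16 (adjusted p = 3.22e-05), Per3 by 0.74 (adjusted p = 0.000184), Per1 by 0.72 (adjusted p = 0.000447) and Ciart by 1.05 (adjusted p = 0.00574). All 7 Fc(mML1)B3 mice exceeded every Fc mouse for Cry1 and Per3, and 6 of 7 did for Per1 and Ciart. Bhlhe41, the repressor DEC2, ranged from 6.36 to 13.5 CPM (median 9.85) in the Fc group and from 4.18 to 8.66 CPM (median 5.24) in the Fc(mML1)B3 group (log2 fold change -0.69, SE 0.17, adjusted p = 0.00829). Each of these 7 genes also passed within the high run, where Nr1d1 was at -1.60 and Per2 at 1.04.

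Among the clock's output genes, 9 of 14 rose and 2 fell (8.56% and 7.55% over all genes), and within the high run 8 rose and 1 fell. The number that fell was 1 to 3 in the fits without 1 library. The deubiquitinase Usp2 ranged from 6.27 to 48.9 CPM (median 28.9) in the Fc group and from 67.4 to 89.3 CPM (median 82.4) in the Fc(mML1)B3 group (log2 fold change 1.49, SE 0.26, adjusted p = 0.000529), and the cell cycle kinase Wee1 rose by 0.94 (adjusted p = 0.000323). Hlf and Tef, which encode D-box activators, rose by 0.45 and 0.44 (adjusted p = 7.83e-05 and 0.00419). None of these 4 genes overlapped between the groups. Dbp, the third D-box activator and the one with the widest daily swing, ranged from 35.4 to 91.2 CPM (median 69.9) in the Fc group and from 54.1 to 110.7 CPM (median 65.4) in the Fc(mML1)B3 group and did not pass (log2 fold change 0.14, SE 0.17, adjusted p = 0.625). Nfil3, the D-box repressor, was at -0.29 (adjusted p = 0.182) and did not pass. Avpr1a, the vasopressin receptor of hepatocytes, fell by 0.94 (adjusted p = 5.12e-06).

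**Figure D2:**
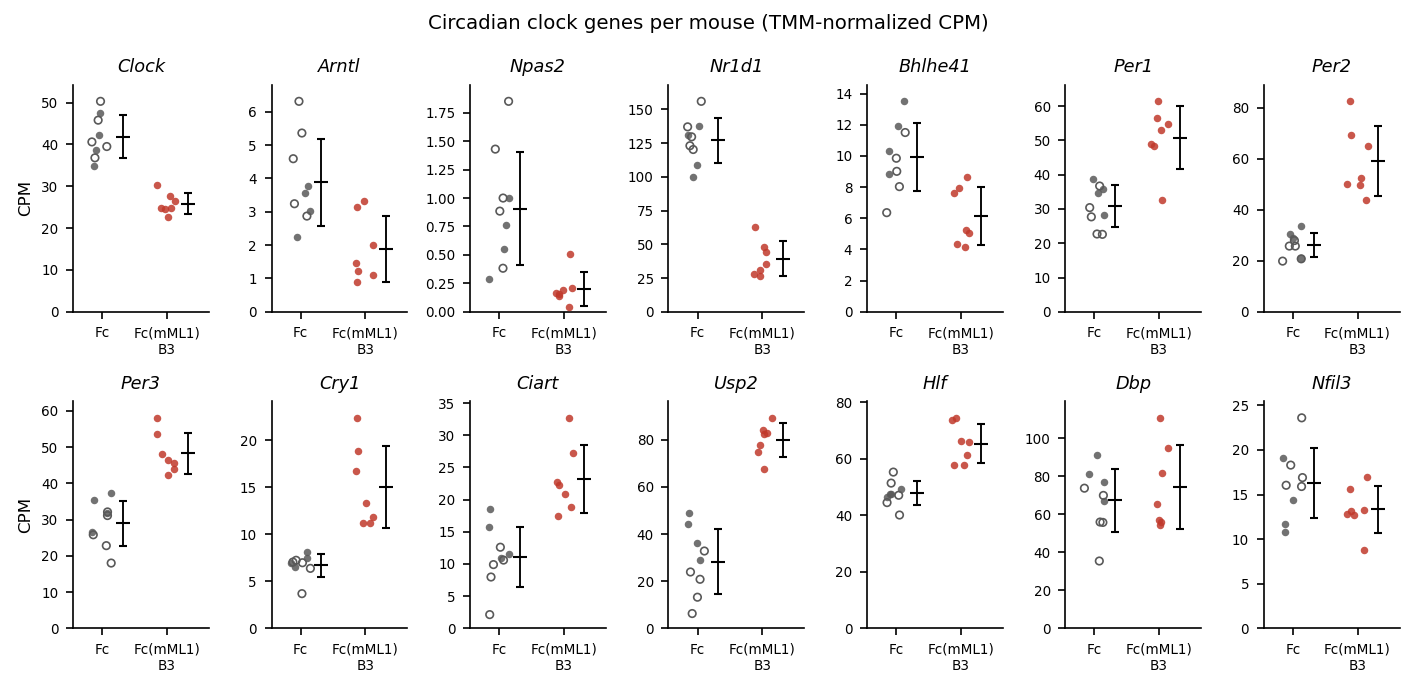
CPM of 14 clock genes in each mouse, with Fc in grey (open circles, low run of S numbers; filled circles, high run) and Fc(mML1)B3 in red; bars are the mean ± SD (n = 9 and 7), and each vertical axis starts at 0. Clock, Nr1d1, Per2, Per3, Cry1, Usp2 and Hlf separated the groups completely, while Dbp and Nfil3 overlapped widely.

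Genes of fatty acid synthesis rose more often than they fell. The pathway turns citrate into palmitate through ATP citrate lyase (Acly), acetyl-CoA carboxylase (Acaca) and fatty acid synthase (Fasn), and SREBP1c, encoded by Srebf1, and ChREBP, encoded by Mlxipl, drive its genes after feeding. Of 23 genes, 12 rose and 2 fell, beside 8.56% higher and 7.55% lower over all genes, with a median of 0.41 and the same median within the high run, where 6 rose and 2 fell. Elovl6, which lengthens palmitate to stearate, ranged from 143.5 to 236.6 CPM (median 195.6) in the Fc group and from 261.4 to 593.1 CPM (median 380.3) in the Fc(mML1)B3 group (log2 fold change 1.09, SE 0.14, adjusted p = 2.72e-05), with no overlap. Acly rose by 0.52 (adjusted p = 0.000854), Acaca by 0.26 (adjusted p = 0.00504), Pklr, the liver pyruvate kinase, by 0.58 (adjusted p = 0.000417) and Srebf1 by 0.43 (adjusted p = 0.00251). Fasn ranged from 570.2 to 928.6 CPM (median 719.4) in the Fc group and from 529.8 to 1736 CPM (median 1148) in the Fc(mML1)B3 group (log2 fold change 0.76, SE 0.17, adjusted p = 0.00433). Pnpla3, a lipid droplet lipase tied to fatty liver disease in humans, ranged from 0.765 to 2.08 CPM (median 1.23) in the Fc group and from 0.688 to 8.75 CPM (median 2.89) in the Fc(mML1)B3 group (log2 fold change 1.52, SE 0.38, adjusted p = 0.00972), and the groups overlapped. Within the high run, Fasn (0.81, adjusted p = 0.0524) and Pnpla3 (1.38, adjusted p = 0.143) did not pass. Mlxipl (-0.13, adjusted p = 0.101) and Me1, malic enzyme (0.28, adjusted p = 0.208), did not pass, nor did Scd1, the delta-9 desaturase, which ranged from 10366 to 15606 CPM (median 12693) in the Fc group and from 8582 to 14384 CPM (median 11942) in the Fc(mML1)B3 group (log2 fold change -0.15, SE 0.10, adjusted p = 0.357). Acaca did not pass in the high run, at 0.24 (adjusted p = 0.0946).

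Elovl3, the elongase of very long saturated chains and a gene with a strong daily rhythm in male liver, went against its list. It ranged from 43.9 to 91.3 CPM (median 77.1) in the Fc group and from 14.9 to 33.3 CPM (median 21.4) in the Fc(mML1)B3 group (log2 fold change -1.51, SE 0.18, adjusted p = 1.01e-05), and the groups did not overlap. Elovl5, the elongase of polyunsaturated chains, fell by 0.47 (adjusted p = 0.00161). Fc(mML1)B3 mouse 1 had the lowest value of its group in 10 of the 12 genes of the list that rose. Without it, 15 genes of the list rose and 2 fell, with a median of 0.45.

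In cholesterol synthesis, the other target of the SREBP factors, 5 of 25 genes rose and 1 fell (8.56% and 7.55% over all genes), with a median of 0.12. These counts depended on single mice. Fc(mML1)B3 mouse 1 was the lowest of its group in 23 of the 25 genes, and without it 9 rose and none fell, with a median of 0.23. Leaving out 1 of the other libraries took the count that rose to as low as 2, which 12 of those libraries brought to 2 or 3, and within the high run 2 rose and none fell, with a median of 0.20. The difference from fatty acid synthesis was not tested. Hmgcs1, an early synthase of the pathway, was lower, at -0.51 (adjusted p = 0.0459), and was lost in 13 of the 16 fits without 1 library, with adjusted p up to 0.1. Sqle, Insig1 and Srebf2 did not pass, at 0.23, 0.18 and -0.14 (adjusted p = 0.361, 0.349 and 0.185). Insig2, which holds the SREBP escort in the endoplasmic reticulum and has a liver transcript that insulin lowers, ranged from 127.3 to 197.4 CPM (median 173.2) in the Fc group and from 72.97 to 82.6 CPM (median 76.1) in the Fc(mML1)B3 group (log2 fold change -1.09, SE 0.09, adjusted p = 7.73e-08), with no overlap. Hmgcs1 did not pass in the high run, at -0.32 (adjusted p = 0.39).

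The genes of bile acids changed on both sides of synthesis and transport. Cyp7a1, which starts the classic pathway, ranged from 60.4 to 122.5 CPM (median 78.7) in the Fc group and from 183.0 to 431.1 CPM (median 246.1) in the Fc(mML1)B3 group without overlap (log2 fold change 1.72, SE 0.19, adjusted p = 3.85e-06). Akr1d1, the 5β-reductase further down, rose by 0.52 (adjusted p = 0.00201), whereas Hsd3b7, the second enzyme after Cyp7a1, ranged from 380.4 to 581.1 CPM (median 464.1) in the Fc group and from 276.3 to 329.4 CPM (median 292.7) in the Fc(mML1)B3 group and fell without overlap (log2 fold change -0.64, SE 0.07, adjusted p = 3.85e-06). Cyp8b1, Cyp27a1 and Cyp7b1 did not pass, at -0.15, 0.14 and 0.42 (adjusted p = 0.658, 0.148 and 0.109). Abcb11, the pump that exports bile salts into the canaliculus, ranged from 509.4 to 759.2 CPM (median 614.3) in the Fc group and from 377.0 to 492.5 CPM (median 453.1) in the Fc(mML1)B3 group (log2 fold change -0.51, SE 0.07, adjusted p = 6.5e-05), with no overlap, and Slc10a1, which takes them up from blood, rose by 0.21 (adjusted p = 0.0153). Nr1h4, which encodes the bile acid receptor FXR, ranged from 108.5 to 129.7 CPM (median 113.2) in the Fc group and from 149.3 to 192.5 CPM (median 176.5) in the Fc(mML1)B3 group (log2 fold change 0.57, SE 0.06, adjusted p = 1.21e-06), with no overlap. Its target Nr0b2, the repressor SHP, was at -0.49 (adjusted p = 0.202), did not pass and spread from 21.3 to 71.7 CPM in the Fc group. In all, 6 of 26 genes rose and 5 fell, beside 8.56% higher and 7.55% lower over all genes. Slc10a1 did not pass in the high run, at 0.25 (adjusted p = 0.0526).

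The acyl-CoA thioesterases, which release free fatty acids from CoA, included 6 genes that rose among 17 of their list (8.56% higher over all genes), which also holds acyl-CoA synthetases. None fell with edgeR, with DESeq2 or at an unadjusted p below 0.05, but 1 fell with edgeR without Fc(mML1)B3 mouse 4. Acot3, a peroxisomal member, ranged from 1.56 to 10.3 CPM (median 3.90) in the Fc group and from 7.45 to 28.9 CPM (median 20.5) in the Fc(mML1)B3 group (log2 fold change 2.28, SE 0.30, adjusted p = 3.63e-05), and 6 of 7 Fc(mML1)B3 mice lay above every Fc mouse. Acot4 rose by 0.87 and Acot11 by 0.58 (adjusted p = 0.000442 and 0.00108). Acot1, the cytosolic neighbour of Acot3 in the same gene cluster, was at 0.37 (adjusted p = 0.289) and did not pass, and neither did the acyl-CoA synthetase Acsl1 (0.20, adjusted p = 0.218). Such close homologues can lose reads, because a read with several alignments did not enter the counts.

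In fatty acid oxidation and ketogenesis, 2 of 30 genes rose and none fell with edgeR or DESeq2 (2 fell at an unadjusted p below 0.05), beside 8.56% higher and 7.55% lower over all genes, and the median was 0.01. None of the list passed within the high run, and 1 to 3 rose in the fits without 1 library, with 1 that fell without Fc(mML1)B3 mouse 3. Cpt1a, which admits fatty acids into mitochondria, rose by 0.26 (SE 0.06, adjusted p = 0.00582). Ppara, the receptor that drives the pathway, was at 0.17 (adjusted p = 0.185), and its targets Cyp4a14, Pdk4 and Fgf21 were at -0.20, -0.08 and -0.42 (adjusted p = 0.646, 0.845 and 0.314). None of these 4 passed. Cpt1a did not pass in the high run, at 0.25 (adjusted p = 0.0583).

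Of 28 genes of lipid droplets and lipases, 4 fell and 5 rose (7.55% and 8.56% over all genes), and within the high run 4 fell and 1 rose. The coat proteins Plin2 and Plin3 were lower, and Plin2 ranged from 394.1 to 505.2 CPM (median 427.2) in the Fc group and from 270.9 to 349.2 CPM (median 321.4) in the Fc(mML1)B3 group (log2 fold change -0.46, SE 0.06, adjusted p = 3.02e-05), with no overlap. Plin3 fell by 0.31 (adjusted p = 0.00115). Lpl, lipoprotein lipase, which lipid-laden macrophages also express, ranged from 270.8 to 401.2 CPM (median 315.4) in the Fc group and from 154.1 to 240.7 CPM (median 182.4) in the Fc(mML1)B3 group (log2 fold change -0.76, SE 0.09, adjusted p = 1.06e-05), again with no overlap. Among the genes that rose, Dgat2, which adds the last acyl chain of triglyceride, ranged from 375.8 to 476.3 CPM (median 438.3) in the Fc group and from 570.2 to 705.5 CPM (median 639.4) in the Fc(mML1)B3 group (log2 fold change 0.53, SE 0.05, adjusted p = 1.33e-06), also with no overlap. G0s2, the inhibitor of adipose triglyceride lipase, ranged from 21.4 to 56.6 CPM (median 33.2) in the Fc group and from 36.7 to 203.3 CPM (median 89.6) in the Fc(mML1)B3 group (log2 fold change 1.5, SE 0.30, adjusted p = 0.00172), with 4 of 7 Fc(mML1)B3 mice above every Fc mouse. Within the high run it was at 1.32 (adjusted p = 0.0661). Cidec, Lpin1 and Cd36 did not pass, at 0.19, 0.22 and -0.20 (adjusted p = 0.551, 0.608 and 0.156).

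Genes of glucose and glycogen metabolism rose more often than they fell. Of 24 genes, 11 rose and 2 fell, beside 8.56% and 7.55% of all genes, with a median of 0.26. Over the high run alone 8 rose and 1 fell, with a median of 0.16. Slc37a4, the glucose 6-phosphate transporter, ranged from 134.7 to 180.8 CPM (median 156.8) in the Fc group and from 212.5 to 278.1 CPM (median 255.3) in the Fc(mML1)B3 group (log2 fold change 0.64, SE 0.07, adjusted p = 2.03e-06), with no overlap. Fbp1, a gluconeogenic phosphatase, rose by 0.33, also without overlap (adjusted p = 0.00075). Gys2, liver glycogen synthase, rose by 0.56 without overlap (adjusted p = 0.000413). Ppp1r3b, the glycogen-targeting subunit that insulin raises, ranged from 110.3 to 277.8 CPM (median 166.4) in the Fc group and from 111.5 to 636.3 CPM (median 371.9) in the Fc(mML1)B3 group (log2 fold change 1.32, SE 0.28, adjusted p = 0.00265), while Ppp1r3c, a related subunit, fell by 0.58 (adjusted p = 0.00932). The gluconeogenic genes Pck1 and G6pc did not pass, at 0.09 and 0.05 (adjusted p = 0.684 and 0.919). Ppp1r3c did not pass in the high run, at -0.48 (adjusted p = 0.0828).

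In the list of insulin signalling, 9 of 22 genes fell and 2 rose (7.55% and 8.56% over all genes), and within the high run 3 fell and 2 rose. Among those that fell are Igfbp1 and Irs2, which the factor FOXO1 is known to induce when insulin is low. Its gluconeogenic targets Pck1 and G6pc did not pass, as given above, and the part of FOXO1 was not tested. Igfbp1, the binding protein of IGF that insulin lowers, ranged from 9.81 to 68.2 CPM (median 28.7) in the Fc group and from 6.31 to 24.7 CPM (median 9.51) in the Fc(mML1)B3 group (log2 fold change -1.5, SE 0.33, adjusted p = 0.00361). Irs2, the docking protein of the insulin receptor, ranged from 3.68 to 10.3 CPM (median 6.94) in the Fc group and from 1.25 to 5.10 CPM (median 3.40) in the Fc(mML1)B3 group (log2 fold change -1.16, SE 0.26, adjusted p = 0.00505). For each, the Fc median exceeded every Fc(mML1)B3 value and 4 mice lay below every Fc mouse, and within the high run neither passed (adjusted p = 0.0549 and 0.055). Trib3, a pseudokinase that binds Akt and an ATF4 target, ranged from 8.81 to 13.9 CPM (median 11.2) in the Fc group and from 2.89 to 5.19 CPM (median 4.25) in the Fc(mML1)B3 group (log2 fold change -1.41, SE 0.14, adjusted p = 1.23e-06), with no overlap. Foxo1 itself rose by 0.53 and Pik3r1, the regulatory subunit of PI3-kinase, by 0.51, both without overlap (adjusted p = 3.02e-05 and 8.69e-06). Irs1 fell by 0.30 (adjusted p = 0.0209), and Insr and Igfbp2 did not pass, at -0.06 and 0.04 (adjusted p = 0.404 and 0.839).

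**Figure D3:**
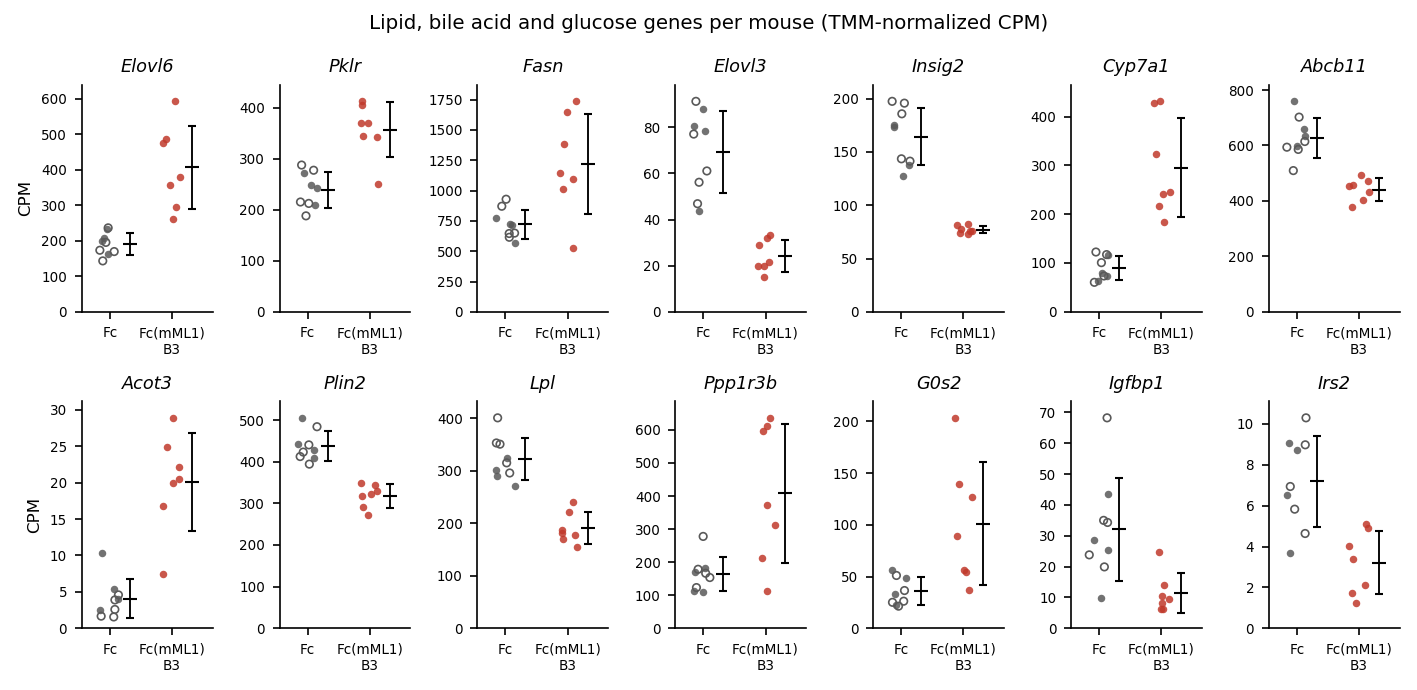
CPM of 14 genes of lipid, bile acid and glucose metabolism in each mouse, drawn as in the plot of clock genes (Fc grey, Fc(mML1)B3 red, open circles for the low run, bars for the mean ± SD, axes from 0). Elovl6, Elovl3, Insig2, Cyp7a1, Abcb11, Plin2 and Lpl did not overlap between the groups, while 1 Fc(mML1)B3 mouse stayed within the Fc range or below it for Pklr and Fasn.

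NAD and amino acid metabolism held 13 genes that rose and 3 that fell among 30 (8.56% and 7.55% over all genes), with 11 and 1 in the high run. Nampt, the rate-limiting enzyme of NAD salvage and a target of the clock, ranged from 63.1 to 96.3 CPM (median 77.99) in the Fc group and from 144.6 to 183.5 CPM (median 156.9) in the Fc(mML1)B3 group (log2 fold change 0.99, SE 0.08, adjusted p = 7.73e-08). Nmrk1, the kinase of nicotinamide riboside, ranged from 17.5 to 34.1 CPM (median 22.3) in the Fc group and from 50.01 to 55.6 CPM (median 53.8) in the Fc(mML1)B3 group (log2 fold change 1.18, SE 0.09, adjusted p = 7.05e-08). Neither overlapped between the groups. Nnmt, which consumes nicotinamide, rose by 0.45 (adjusted p = 0.0359, lost in 9 of the 16 fits without 1 library, with adjusted p up to 0.101). The transaminases Gpt and Gpt2, which join alanine to gluconeogenesis, rose by 0.34 and 0.51 without overlap (adjusted p = 0.000462 and 9.89e-05). Cbs, which commits homocysteine to cysteine synthesis, ranged from 445.1 to 613.8 CPM (median 538.3) in the Fc group and from 329.7 to 430.0 CPM (median 354.0) in the Fc(mML1)B3 group (log2 fold change -0.56, SE 0.07, adjusted p = 8.79e-06), and histidase, Hal, fell by 0.47 (adjusted p = 0.00182). Bhmt and Tat, which degrade betaine and tyrosine, did not pass (-0.01 and 0.34, adjusted p = 0.985 and 0.204). In the urea cycle, Asl rose by 0.62 without overlap (adjusted p = 2.77e-05) and Cps1 by 0.19 (adjusted p = 0.0313, lost in 7 of the 16 fits without 1 library, with adjusted p up to 0.0757). Of the 18 genes of the urea cycle and the periportal zone, 8 rose and 3 fell, with 6 and 1 in the high run. Hal and Cps1 did not pass in the high run, at -0.29 and 0.23 (adjusted p = 0.114 and 0.0685).

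Drug-metabolizing genes rose in 22 cases and fell in 1 among the 69 genes of 2 lists, beside 8.56% higher and 7.55% lower over all genes. In the high run 11 rose and 1 fell, and in the fits without 1 library 15 to 25 rose. The nuclear receptor gene Nr1i3, which encodes CAR, ranged from 66.8 to 95.03 CPM (median 73.4) in the Fc group and from 100.6 to 146.3 CPM (median 107.6) in the Fc(mML1)B3 group (log2 fold change 0.62, SE 0.09, adjusted p = 5.22e-05), with no overlap, and Nr1i2, which encodes PXR, was at 0.24 (adjusted p = 0.0501). Por, the reductase that feeds electrons to every microsomal P450, ranged from 170.5 to 317.3 CPM (median 257.6) in the Fc group and from 473.1 to 661.6 CPM (median 518.6) in the Fc(mML1)B3 group (log2 fold change 1.14, SE 0.12, adjusted p = 1.63e-06), with no overlap. Cyp2a5 ranged from 248.7 to 920.4 CPM (median 447.1) in the Fc group and from 951.2 to 1521 CPM (median 1158) in the Fc(mML1)B3 group (log2 fold change 1.07, SE 0.23, adjusted p = 0.00328) and did not overlap either, though within the high run it was at 0.70 (adjusted p = 0.0525). Alas1, the first enzyme of heme synthesis, rose by 1.17 (adjusted p = 0.0144), and Clpx, the unfoldase that degrades ALAS1 protein, fell by 0.79 without overlap (adjusted p = 5.22e-05). Alas1 was not past the threshold within the high run (0.66, adjusted p = 0.214). Tfrc, the transferrin receptor, rose by 0.80 (adjusted p = 8.29e-05), and Hamp, the iron hormone hepcidin, was at 0.25 (adjusted p = 0.42) and did not pass. The classic CAR and PXR targets Cyp2c29 and Cyp3a11 did not pass, at 0.48 and 0.09 (adjusted p = 0.222 and 0.582). Among esterases and conjugating enzymes, the carboxylesterase Ces1d rose by 0.80 and the sulfotransferase Sult1d1 by 0.34 (adjusted p = 2.49e-05 and 0.00198), while Gsta1, Gstm3 and Gstp1, glutathione transferases, were at 0.04, -0.07 and 0.36 and did not pass (adjusted p = 0.935, 0.841 and 0.101). Cyp17a1, a steroid hydroxylase, rose by 0.66 (adjusted p = 0.0475, lost in 11 of the 16 fits without 1 library, with adjusted p up to 0.144). Cyp2b10 had medians of 0.401 and 0.409 CPM and its highest value in Fc(mML1)B3 mouse 5, at 14.6 CPM. Without that mouse it was not past the threshold (0.92, adjusted p = 0.351), nor without Fc mouse 1, 2 or 9. Fc(mML1)B3 mouse 5 was also the highest for Cyp2c29, at 2801 CPM beside a group median of 724.6 CPM. Cyp17a1 and Cyp2b10 did not pass in the high run, at 0.38 and 2.18 (adjusted p = 0.464 and 0.277).

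Genes of the unfolded protein response and of ATF4 fell more often than they rose. When unfolded proteins gather in the endoplasmic reticulum, ATF6 and XBP1 raise chaperone genes through an element named ERSE, and PERK raises ATF4 and its targets. Of 30 genes, 13 fell and 1 rose (7.55% and 8.56% over all genes), with a median of -0.22 and 27 of 30 below 0. In the high run alone the median was -0.21, with 6 lower. Hspa5, the chaperone BiP, ranged from 691.5 to 1184 CPM (median 919.1) in the Fc group and from 531.1 to 886.2 CPM (median 665.4) in the Fc(mML1)B3 group (log2 fold change -0.46, SE 0.12, adjusted p = 0.0123), and the Fc median exceeded every Fc(mML1)B3 value. Sdf2l1, a partner of BiP, ranged from 31.9 to 50.5 CPM (median 36.7) in the Fc group and from 17.2 to 31.7 CPM (median 22.8) in the Fc(mML1)B3 group (log2 fold change -0.75, SE 0.12, adjusted p = 0.000228), with no overlap. Pdia4 fell by 0.54, Creld2 by 0.63, Calr by 0.32, Pdia6 by 0.30 and Hsp90b1 by 0.27. The adjusted p was 7.36e-05 for Pdia4, 0.0224 for Creld2, 0.00229 for Calr, 0.00267 for Pdia6 and 0.00681 for Hsp90b1. Creld2 lost its call without Fc(mML1)B3 mouse 4 (-0.55, adjusted p = 0.0528), and within the high run Calr, Pdia6, Hsp90b1 and Creld2 did not pass, with adjusted p from 0.0608 to 0.128.

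The windows below show the ERSE matches (CCAAT, 9 bases of any kind, CCACG, on either strand) before the starts of the 5 genes of the list that fell and hold one, from RefSeq on GRCm38.p6, 5′ to 3′ on the gene's strand with the match in capitals. The windows are at chr2:34772013-34772055 (plus strand) for Hspa5, chr10:86705521-86705668 (minus strand) for Hsp90b1, chr15:88819508-88819550 (plus strand) for Creld2, chr8:84847063-84847105 (minus strand) for Calr and chr12:17266479-17266521 (plus strand) for Pdia6.
Hspa5: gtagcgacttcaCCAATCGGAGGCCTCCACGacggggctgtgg
Hsp90b1: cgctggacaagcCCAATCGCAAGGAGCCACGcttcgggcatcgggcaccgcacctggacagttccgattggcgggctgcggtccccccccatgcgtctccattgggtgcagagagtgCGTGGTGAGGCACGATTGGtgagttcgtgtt
Creld2: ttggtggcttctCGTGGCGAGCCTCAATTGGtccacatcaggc
Calr: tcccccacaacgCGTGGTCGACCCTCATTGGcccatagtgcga
Pdia6: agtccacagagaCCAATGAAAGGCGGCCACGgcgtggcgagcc
Hsp90b1 holds 2 matches. Over the 250 bases before the start, the element was in 6 of the 28 genes of the list with a promoter in the table (21.4%), beside 0.164% of the promoters of genes tested and 0.122% of all promoters. It was in 5 of the 12 genes that fell and in 1 of the 15 that did not pass, Dnajc3, at -0.12 (adjusted p = 0.205). The list was written from known genes of this response, so these shares are a description. A match does not show that a factor binds there.

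The gene of the list of the unfolded protein response and ATF4 that rose was Ddit4, an inhibitor of mTOR complex 1 (0.60, adjusted p = 0.0459, lost in 11 of the 16 fits without 1 library, with adjusted p up to 0.119). Atf5, itself a stress factor, ranged from 172.1 to 235.2 CPM (median 224.1) in the Fc group and from 111.2 to 140.3 CPM (median 135.7) in the Fc(mML1)B3 group (log2 fold change -0.74, SE 0.07, adjusted p = 6.25e-07), with no overlap, and Trib3 fell as described. Ddit3, which encodes CHOP, Atf3 and Asns did not pass, at -0.44, -0.23 and -0.08 (adjusted p = 0.114, 0.28 and 0.763). Among 20 targets of p53, 7 fell (7.55% over all genes) and none rose with edgeR, and 2 fell within the high run. None rose with DESeq2 or at an unadjusted p below 0.05. Eda2r, a death receptor of the TNF family, ranged from 1.80 to 3.80 CPM (median 2.68) in the Fc group and from 0.946 to 1.77 CPM (median 1.46) in the Fc(mML1)B3 group (log2 fold change -0.96, SE 0.17, adjusted p = 0.000601), with no overlap. Gdf15, a secreted stress hormone that ATF4 also raises, ranged from 5.95 to 12.96 CPM (median 8.44) in the Fc group and from 3.31 to 7.43 CPM (median 4.77) in the Fc(mML1)B3 group (log2 fold change -0.75, SE 0.18, adjusted p = 0.00731), and within the high run it was at -0.65 (adjusted p = 0.061). The cell cycle inhibitor Cdkn1a fell by 0.58 (adjusted p = 0.0285, lost in 5 of the 16 fits without 1 library, with adjusted p up to 0.059). Mdm2 did not pass (-0.06, adjusted p = 0.46). Ddit4 and Cdkn1a did not pass in the high run, at 0.79 and -0.34 (adjusted p = 0.0787 and 0.339).

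Respiratory chain genes differed by small amounts. All 39 genes tested had values above 0, 18 of them rose with edgeR (8.56% over all genes) and 21 with DESeq2, and none fell with either or at an unadjusted p below 0.05, with a median of 0.13. Beside Ndufaf4, the values reached 0.24 for Cycs, cytochrome c (adjusted p = 0.00826), and 0.19 for Ndufv2, a complex I subunit, whose groups did not overlap (adjusted p = 0.00204). Ndufs1, the largest complex I subunit, and Atp5b, a catalytic subunit of ATP synthase, rose by 0.14 and 0.16 (adjusted p = 0.0416 and 0.0288). Ndufs1 was lost in 13 of the 16 fits without 1 library, with adjusted p up to 0.102. Atp5b was lost in 5 of the 16 fits without 1 library, with adjusted p up to 0.0714. Of the 39, 3 rose within the high run, with a median of 0.11, and Cycs, Ndufv2, Ndufs1 and Atp5b did not pass there (adjusted p = 0.152, 0.0665, 0.314 and 0.192). Ribosomal proteins, a list with the same kind of steady expression, had a median of 0.04 over 42 genes. None passed with edgeR, 1 rose with DESeq2 and in 3 of the edgeR fits without 1 library, and 3 rose at an unadjusted p below 0.05, with 0.03 for Rplp0 and 0.05 for Rps6.

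Among 21 genes of Met signalling, Gab1, the adaptor of Met, rose and Cd44, a co-receptor, fell, beside 8.56% higher and 7.55% lower over all genes. Of the 21, 2 rose and 0 fell in the high run. In the fits without 1 library 0 to 2 fell and 1 or 2 rose (2 without Fc mouse 5 or 9), and with DESeq2 1 fell and 2 rose. Cd44 fell by 0.31 (adjusted p = 0.0291, lost in 4 of the 16 fits without 1 library, with adjusted p up to 0.0699). Gab1 ranged from 14.2 to 18.6 CPM (median 17.6) in the Fc group and from 20.7 to 25.4 CPM (median 22.7) in the Fc(mML1)B3 group (log2 fold change 0.44, SE 0.06, adjusted p = 6.59e-05), with no overlap. Met ranged from 63.6 to 89.5 CPM (median 77.8) in the Fc group and from 82.5 to 98.6 CPM (median 86.9) in the Fc(mML1)B3 group and did not pass (log2 fold change 0.19, SE 0.07, adjusted p = 0.0562). Hgf and Hgfac, the protease that activates HGF, did not pass, at -0.22 and 0.12 (adjusted p = 0.0982 and 0.317). Mst1, a ligand related to HGF, and Lrig1, which lowers Met, were at 0.05 and -0.16 (adjusted p = 0.581 and 0.28). Cd44 did not pass in the high run, at -0.26 (adjusted p = 0.205).

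Of 29 genes that Erk is known to induce, 1 rose and 2 fell, beside 8.56% higher and 7.55% lower over all genes, with a median of -0.12. Among the high run's mice 0 rose and 2 fell. The number that fell was 4 with DESeq2 and without Fc mouse 4 or 7, and 5 without Fc(mML1)B3 mouse 3. Junb, an AP-1 subunit, ranged from 29.1 to 55.6 CPM (median 38.9) in the Fc group and from 13.6 to 30.9 CPM (median 17.2) in the Fc(mML1)B3 group (log2 fold change -1.05, SE 0.16, adjusted p = 0.000186), and 6 of 7 Fc(mML1)B3 mice lay below every Fc mouse. Spred2, which inhibits Ras, fell by 0.39 (adjusted p = 0.00689), and the phosphatase Dusp1 rose by 0.83 (adjusted p = 0.0425, lost in 12 of the 16 fits without 1 library, with adjusted p up to 0.13). Dusp6, Spry2, Spry4, Errfi1, Fos and Egr1, which respond early to Erk, did not pass, with values from -0.76 for Egr1 (SE 0.36) to 0.20 for Dusp6 (SE 0.16). The last injection was on day 7 and the livers were taken after 10 days, and the part of this interval in the values was not tested. Among 16 genes of the ErbB receptors, Eps8l2, an actin regulator related to the EGF receptor substrate Eps8, ranged from 53.9 to 73.9 CPM (median 64.3) in the Fc group and from 30.004 to 35.99 CPM (median 33.2) in the Fc(mML1)B3 group (log2 fold change -0.95, SE 0.06, adjusted p = 1.56e-08), and the receptor Erbb3 ranged from 52.7 to 89.8 CPM (median 72.04) in the Fc group and from 35.2 to 52.1 CPM (median 46.5) in the Fc(mML1)B3 group (log2 fold change -0.69, SE 0.10, adjusted p = 7.48e-05). Neither overlapped. The ligand Nrg4 rose by 0.82 and the ligand Btc fell by 0.51 (adjusted p = 0.000119 and 0.00956), and Egfr did not pass (0.21, adjusted p = 0.413). Dusp1 and Btc did not pass in the high run, at 0.76 and -0.51 (adjusted p = 0.229 and 0.0801).

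Other receptor pathways gave single genes. In the Wnt list, Wnt5b, a non-canonical ligand, ranged from 3.52 to 4.85 CPM (median 4.49) in the Fc group and from 9.16 to 11.8 CPM (median 10.3) in the Fc(mML1)B3 group (log2 fold change 1.27, SE 0.08, adjusted p = 1.56e-08), with no overlap, and the co-receptor Lrp5 fell by 0.48 without overlap (adjusted p = 1.3e-05). The endothelial ligands Wnt2, Wnt9b and Rspo3, which keep hepatocytes around the central vein in their zone, were at -0.18, -0.01 and -0.09 and did not pass (adjusted p = 0.504, 0.989 and 0.535). Their targets Axin2 and Glul did not pass (-0.08 and 0.17, adjusted p = 0.755 and 0.335). The receptor Fzd4 rose by 0.55 (adjusted p = 0.000397), the decoy Sfrp1 fell by 0.79 (adjusted p = 0.0395, lost in 10 of the 16 fits without 1 library, with adjusted p up to 0.0846) and Wnt5a was at -0.18 (adjusted p = 0.563). In the Notch list, 5 of 22 genes fell and 2 rose, beside 7.55% lower and 8.56% higher over all genes. In the high run 1 fell and 2 rose, the number that rose was 1 to 3 in the fits without 1 library, and in 12 of the 16 fits without 1 library 1 to 3 fell, with 1 without Fc mouse 9 or Fc(mML1)B3 mouse 1. Dtx4 ranged from 15.3 to 23.1 CPM (median 18.6) in the Fc group and from 8.53 to 10.7 CPM (median 9.79) in the Fc(mML1)B3 group (log2 fold change -0.99, SE 0.08, adjusted p = 7.05e-08), while the receptor Notch1 (-0.34, adjusted p = 0.0389) and its target Hes1 (-0.41, adjusted p = 0.0397) fell, but each call was lost in 11 of the 16 fits without 1 library, with adjusted p up to 0.0813 for Notch1 and 0.0875 for Hes1. Hes6 ranged from 35.8 to 70.1 CPM (median 48.3) in the Fc group and from 81.4 to 104.3 CPM (median 89.1) in the Fc(mML1)B3 group (log2 fold change 0.89, SE 0.10, adjusted p = 5.1e-06), and the ligand Jag1 was at -0.02 (adjusted p = 0.943). Of 32 genes of TGF-β and BMP signalling, 2 fell and 1 rose, smaller shares than the 7.55% and 8.56% over all genes, and in the high run 1 fell and 0 rose. Without Fc(mML1)B3 mouse 1 or 4, 2 rose. The effector Smad3 and the activin subunit Inhbb fell by 0.45 and 0.98 (adjusted p = 0.000133 and 0.00168), and the receptor Tgfbr2 rose by 0.22 (adjusted p = 0.00956). Bmp2, Id1, Inhbe and Smad7 did not pass, with values from -0.19 for Id1 to 0.32 for Inhbe, nor did Tgfb1, Tgfb2 and Tgfb3 (-0.14, -0.44 and -0.26, adjusted p = 0.143, 0.148 and 0.512). Sfrp1, Notch1, Hes1, Inhbb and Tgfbr2 did not pass in the high run, at -0.87, -0.13, -0.42, -0.70 and 0.20 (adjusted p = 0.134, 0.551, 0.0939, 0.0592 and 0.121).

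**Figure D4:**
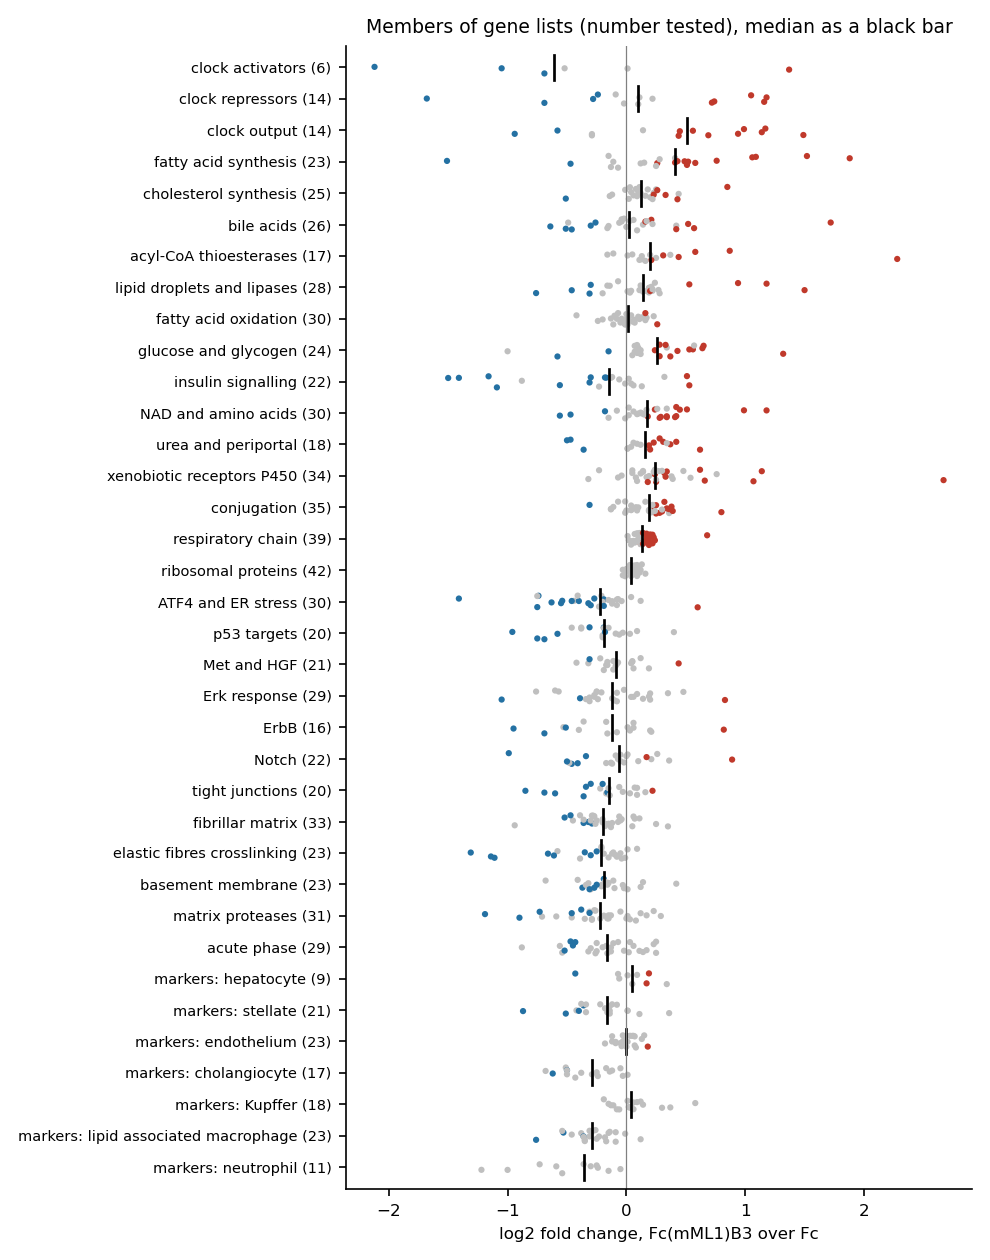
Each point is 1 gene of a list, placed by its log2 fold change (Fc(mML1)B3 over Fc), red or blue where it rose or fell at an adjusted p below 0.05 and grey otherwise; the black bar is the list's median and the number in brackets the genes tested. The 39 respiratory chain genes lay above 0 and 27 of the 30 genes of ER stress and ATF4 below it.

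Genes of tight junctions, which seal the bile canaliculi between hepatocytes, were lower in 8 of 20 cases and higher in 1, beside 7.55% lower over all genes. Cldn1 ranged from 60.4 to 96.4 CPM (median 80.4) in the Fc group and from 36.4 to 51.4 CPM (median 40.7) in the Fc(mML1)B3 group (log2 fold change -0.85, SE 0.10, adjusted p = 6.32e-06), and Ocln, occludin, ranged from 22.2 to 32.1 CPM (median 27.3) in the Fc group and from 13.6 to 21.2 CPM (median 15.7) in the Fc(mML1)B3 group (log2 fold change -0.69, SE 0.09, adjusted p = 4.21e-05). Tjp3, the scaffold ZO-3, fell by 0.60 (adjusted p = 7.94e-05). These 3 genes did not overlap between the groups, and each passed within the high run, at -0.70, -0.69 and -0.54. Cingulin, Cgn, fell by 0.34 (adjusted p = 0.00113), and E-cadherin, Cdh1, fell by 0.36 (adjusted p = 0.00114). Cldn12 rose by 0.22 (adjusted p = 0.00505), and Gjb1, the gap junction protein connexin 32, did not pass (-0.14, adjusted p = 0.062). Of the 20, 6 fell and 0 rose in the high run. Cldn12 did not pass in the high run, at 0.20 (adjusted p = 0.0587).

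Matrix genes that passed were lower. Over the 124 genes of 5 matrix lists, 28 fell (7.55% over all genes) and none rose with edgeR, with a median of -0.21 beside the -0.0112 of all genes. At an unadjusted p below 0.05, 45 were lower and 5 higher, DESeq2 called 35 lower and none higher, and limma-voom 30 lower and 1 higher. In the high run 17 fell and 1 rose, and the fits without 1 library gave 18 that fell (without Fc(mML1)B3 mouse 6) to 34. In 5 of those fits 1 rose. The gene that rose in the high run was the laminin chain Lama3, chosen after its values were seen (0.72, adjusted p = 0.0223). The list of elastic fibres and matrix crosslinking had 8 of 23 genes lower (7.55% over all genes). Elastic fibres make old scars stiff and slow to clear. Of the crosslinking genes, Pxdn, the peroxidase that crosslinks collagen IV, ranged from 12.8 to 18.5 CPM (median 15.4) in the Fc group and from 8.95 to 12.8 CPM (median 9.74) in the Fc(mML1)B3 group (log2 fold change -0.61, SE 0.10, adjusted p = 0.000184), with no overlap. Fbn2, fibrillin 2, ranged from 0.521 to 3.07 CPM (median 1.09) in the Fc group and from 0.162 to 1.10 CPM (median 0.413) in the Fc(mML1)B3 group (log2 fold change -1.31, SE 0.38, adjusted p = 0.0223) and Fbn1 fell by 0.35 (adjusted p = 0.0241), which was lost without Fc(mML1)B3 mouse 1 or 6 (adjusted p up to 0.0523). Eln, elastin, fell by 1.14 and Lox, lysyl oxidase, by 1.11 (adjusted p = 0.000697 and 0.000572), and within the high run they were at -1.35 and -1.18. Fbln2 and Loxl2 did not pass (-0.12 and -0.11, adjusted p = 0.533 and 0.391). Fbn1 did not pass in the high run, at -0.40 (adjusted p = 0.0617).

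The main fibrillar collagens did not pass. Col1a1 ranged from 38.2 to 79.2 CPM (median 46.6) in the Fc group and from 30.3 to 48.4 CPM (median 42.6) in the Fc(mML1)B3 group (log2 fold change -0.28, SE 0.13, adjusted p = 0.161). Col1a2, Col3a1 and Col6a3 did not pass, at -0.27, -0.25 and -0.39 (adjusted p = 0.0718, 0.071 and 0.0773), nor did Fn1, fibronectin (-0.05, adjusted p = 0.725), or the small proteoglycans Dcn and Lum (-0.12 and -0.20, adjusted p = 0.398 and 0.573). Serpinh1, the collagen chaperone HSP47, ranged from 31.1 to 54.2 CPM (median 38.5) in the Fc group and from 22.9 to 34.1 CPM (median 28.3) in the Fc(mML1)B3 group (log2 fold change -0.47, SE 0.10, adjusted p = 0.00191), and Col16a1 fell by 0.36 without overlap (adjusted p = 0.00376). In the basement membrane, 5 of 23 genes fell (7.55% over all genes), and in the high run 2 fell and 1 rose. Nid1 fell by 0.27 without overlap and Col4a1 by 0.37 (adjusted p = 0.000328 and 0.00233). Col4a2 and Hspg2, perlecan, fell by 0.19 and 0.25 (adjusted p = 0.0283 and 0.0213). Hspg2 was lost without Fc(mML1)B3 mouse 5, where the log2 fold change was -0.22 with an adjusted p of 0.0509. Col4a2 was lost in 2 of the 16 fits without 1 library, with adjusted p up to 0.066, and Lamb3 was at 0.12 (adjusted p = 0.637). Of the matricellular proteins, which sit in matrix and signal to cells, 4 of 17 fell (2 in the high run), beside 7.55% over all genes. Thbs1 and Thbs2, the thrombospondins, fell by 0.69 and 0.74 (adjusted p = 0.0148 and 0.00695), and Spp1, osteopontin, was at -0.17 (adjusted p = 0.572). Among the proteases and their inhibitors, 6 of 31 fell (7.55% over all genes), and 3 did in the high run or without Fc(mML1)B3 mouse 6. Adamts4 ranged from 0.409 to 1.20 CPM (median 0.765) in the Fc group and from 0.172 to 0.567 CPM (median 0.330) in the Fc(mML1)B3 group (log2 fold change -1.19, SE 0.28, adjusted p = 0.00569), Adam12 fell by 0.90 and the plasminogen activator Plat by 0.73 (adjusted p = 0.0149 and 0.0114). Mmp2, Mmp12, Mmp13, Plau and Timp1, which break down matrix or block its breakdown, did not pass, with values from -0.35 for Mmp12 to 0.01 for Timp1. Col4a1, Col4a2, Hspg2, Thbs1, Adamts4 and Plat did not pass in the high run, at -0.32, -0.14, -0.27, -0.68, -0.94 and -0.80 (adjusted p = 0.0614, 0.164, 0.0686, 0.0909, 0.109 and 0.0541).

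Fc mouse 6 had the highest value of its group in 24 of the 33 fibrillar genes and in 12 of the 21 stellate cell markers. Without it, the count of genes of elastic fibres and crosslinking that fell was again 8 of 23, with a median of -0.07 in place of -0.21. The count of fibrillar genes that fell, 5 of 33 beside 7.55% over all genes, was 11 with DESeq2 and moved with single mice. It was 10 without Fc mouse 5, 8 without Fc mouse 7 or Fc(mML1)B3 mouse 2, 3 without Fc mouse 1, 6 or 9 or Fc(mML1)B3 mouse 3, and 2 without Fc(mML1)B3 mouse 4 or 6. Fc(mML1)B3 mouse 1 was the lowest of its group in 16 of the 33 fibrillar genes.

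Hepatic stellate cells store vitamin A and turn into matrix-producing myofibroblasts in fibrosis. Their 21 markers summed to 725.5 to 1044 CPM in the Fc group and 657.6 to 807.6 CPM in the Fc(mML1)B3 group, and 4 fell (7.55% over all genes), with a median of -0.16 (2 fell within the high run or without Fc(mML1)B3 mouse 1). Dcn, which did not pass, was a large part of these sums, at 319.1 to 472.6 CPM in the Fc group and 259.8 to 378.6 CPM in the Fc(mML1)B3 group. Ngfr, the nerve growth factor receptor p75, ranged from 4.10 to 6.46 CPM (median 5.05) in the Fc group and from 2.12 to 3.40 CPM (median 2.80) in the Fc(mML1)B3 group (log2 fold change -0.87, SE 0.11, adjusted p = 3.17e-05), with no overlap, and Pdgfrb fell by 0.51 and Des, desmin, by 0.36 (adjusted p = 0.0073 and 0.0239), the latter lost without Fc(mML1)B3 mouse 1 or 7 (adjusted p up to 0.054). Acta2, the myofibroblast actin, Tagln, Lrat and Reln did not pass, at -0.42, -0.14, -0.18 and -0.16 (adjusted p = 0.12, 0.52, 0.601 and 0.101). The part of stellate cell number in the matrix values was not tested. Des did not pass in the high run, at -0.40 (adjusted p = 0.0739).

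Among the other cells, markers of cholangiocytes had a median of -0.29, with 16 of 17 below 0 and 2 lower (0 to 3 in the fits without 1 library, beside 7.55% over all genes), at summed levels of 420.1 to 726.1 CPM in the Fc group and 375.3 to 624.6 CPM in the Fc(mML1)B3 group. Much of these sums was Spp1, which the list of lipid-associated macrophages also holds, at 190.2 to 435.8 CPM in the Fc group and 156.1 to 362.6 CPM in the Fc(mML1)B3 group. The ductal factor Sox9, which the Notch list also holds, fell by 0.50 (adjusted p = 0.0402, lost in 10 of the 16 fits without 1 library, with adjusted p up to 0.088), and Krt19, Krt7 and Epcam did not pass (-0.51, -0.05 and -0.25, adjusted p = 0.148, 0.932 and 0.469). Lipid-associated macrophages, which gather around dying fat-laden hepatocytes, had 22 of 23 markers below 0 and 3 lower (beside 7.55% over all genes, 5 without Fc mouse 8 or Fc(mML1)B3 mouse 3 and 1 without Fc(mML1)B3 mouse 6), with a median of -0.29 and summed levels of 2076 to 3415 and 1718 to 2842 CPM. Beside Lpl, Cd9 fell by 0.36 (adjusted p = 0.0224, lost without Fc(mML1)B3 mouse 6, where the log2 fold change was -0.34 with an adjusted p of 0.0515) and Gpnmb by 0.53 (adjusted p = 0.032, lost in 6 of the 16 fits without 1 library, with adjusted p up to 0.0657). Trem2, which defines these cells, Itgax, Cd68 and the monocyte receptor Ccr2 did not pass, at -0.38, -0.36, -0.29 and -0.15 (adjusted p = 0.134, 0.0989, 0.0775 and 0.576). Kupffer cell and endothelial markers had medians of 0.04 and 0.00, with 0 of 18 and 1 of 23 (0 without Fc(mML1)B3 mouse 6) past the threshold with edgeR and with DESeq2, and the Kupffer list also had 0 at an unadjusted p below 0.05. Their defining genes Clec4f, Timd4 and Adgre1 (Kupffer cells) and Pecam1, Stab2 and Lyve1 (endothelium) lay between -0.12 for Pecam1 and 0.12 for Timd4. Sox9 and Gpnmb did not pass in the high run, at -0.31 and -0.60 (adjusted p = 0.393 and 0.0982).

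Acute phase genes and neutrophil markers had medians that changed sign without Fc mouse 5. Of 29 acute phase genes, 4 fell (7.55% over all genes) and none rose with edgeR or DESeq2 (1 rose at an unadjusted p below 0.05), with a median of -0.16. Those that fell were the fibrinogen chains Fga, Fgb and Fgg and Lbp, at -0.52, -0.43, -0.45 and -0.47 (adjusted p = 0.00782, 0.02, 0.0145 and 0.0408), Lbp lost in 7 of the 16 fits without 1 library, with adjusted p up to 0.0859. Saa1, Saa2, Orm2, Hp and Lcn2 did not pass, with values from -0.54 for Lcn2 to -0.13 for Hp, and Fc mouse 5 was the highest of its group for each. The other Fc mice were at 16.1 to 56.9 CPM for Lcn2 and 2751 to 3499 CPM for Hp. The Fc(mML1)B3 mice were at 29.3 to 61.3 CPM and 3033 to 3669 CPM, so these negative values rest on Fc mouse 5. Saa2, serum amyloid A2, was at 344.3 CPM in Fc mouse 5, above its group's median of 91.1 CPM and above all Fc(mML1)B3 mice, which reached 133.1 CPM. Without Fc mouse 5, 4 genes of the list were lower and 3 higher, with a median of 0.10. In the high run, which does not hold it, 4 rose, the median was 0.13 and none of the fibrinogen chains passed (adjusted p = 0.113, 0.201 and 0.147). Neutrophil markers turned in the same way, with a median of -0.36 over all mice, 0.25 without Fc mouse 5 and 0.36 within the high run, and 0 of 11 passed in each of these edgeR fits, with DESeq2 or, over all mice, at an unadjusted p below 0.05. S100a8, a neutrophil calprotectin gene, was at 24.9 CPM in Fc mouse 5 and between 1.49 and 6.23 CPM in the Fc(mML1)B3 group. Lbp did not pass in the high run, at -0.30 (adjusted p = 0.101).

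**Figure D5:**
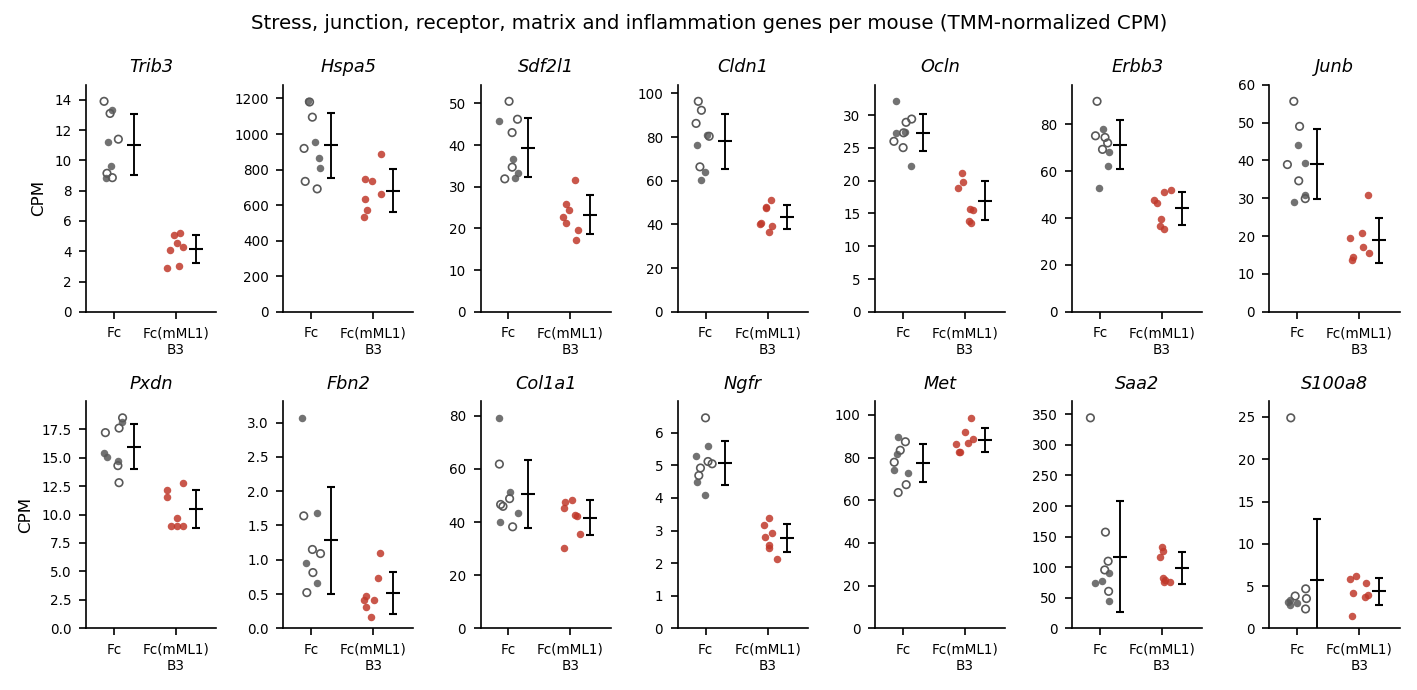
CPM of 14 genes of stress, junctions, receptors, matrix and inflammation in each mouse, drawn as in the plot of clock genes. Trib3, Sdf2l1, Cldn1, Ocln, Erbb3, Pxdn and Ngfr did not overlap between the groups, Met and Col1a1 did, and the highest values for Saa2, S100a8 and Fbn2 were in Fc mice.

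Of 32 genes of cell division, which HGF drives in regenerating liver, 2 rose and 3 fell, beside 8.56% and 7.55% of all genes, with a median of -0.12. Fc mouse 5 was the highest of its group in 12 of the 32, and without it 1 fell, as without Fc mouse 3 or Fc(mML1)B3 mouse 2 or 5. The number that rose was 0 to 3 in the fits without 1 library, and within the high run 1 rose and none fell. Mki67, which marks dividing cells, ranged from 6.09 to 10.7 CPM (median 7.81) in the Fc group and from 4.05 to 8.59 CPM (median 6.03) in the Fc(mML1)B3 group, a decrease (log2 fold change -0.43, SE 0.14, adjusted p = 0.0466), though lost in 10 of the 16 fits without 1 library, with adjusted p up to 0.0927. Cdk1 and Top2a, also of dividing cells, did not pass, at 0.23 and -0.31 (adjusted p = 0.177 and 0.2). Ccnd1, cyclin D1, was at 0.16 (SE 0.11, adjusted p = 0.366) and Pcna at -0.08 (SE 0.05, adjusted p = 0.302). Of 26 genes of hepatocyte identity, 2 fell, Fgb among them, and none rose with edgeR, but 1 or 2 rose in 7 of the fits without 1 library, 1 in the high run and 2 with DESeq2, with values from -0.43 to 0.57. Those of its best known members were -0.09 for the factor Hnf4a, 0.05 for Cebpa, 0.01 for Alb, albumin, 0.05 for Ttr, transthyretin, and -0.04 for Afp, the fetal albumin (adjusted p = 0.451, 0.703, 0.974, 0.588 and 0.898). Mki67 did not pass in the high run, at -0.20 (adjusted p = 0.513).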

How the data were processed

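The 16 libraries were made from total RNA of whole liver with a stranded kit and sequenced as paired 100-base reads. Per the methods of the study and the labels, the authors trimmed reads with fastp, removed ribosomal RNA with Bowtie2 2.4.5, aligned the rest to mm10 with STAR 2.7.10a and counted with featureCounts 2.0.3, without strand, counting each read end and leaving out reads with several alignments. The deposited values are raw counts per gene, 1 file per mouse, not pooled.

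Counts were analysed as deposited with edgeR 4.0.16 in R 4.3.3: filterByExpr kept 13570 genes, TMM factors scaled the libraries, and the quasi-likelihood F-test compared the 2 groups without covariates, with Benjamini-Hochberg adjustment. SEs were derived from the fold change and its F statistic. The fit was tested on simulated data. DESeq2 1.42.0, limma-voom (limma 3.58.1), other normalizations and filters, equal depth, the mouse number as a block, the S number run as a subset or covariate, and leaving out each library were alternatives. Total counts of 19085473 to 28466853 set the counting error, and the spread between mice was a biological coefficient of variation of 12.74%.

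The comparison and the 57 gene lists were chosen with earlier results of these data known, and lists were not tested. Genes named are the 10 with the smallest p in each direction among those past the threshold that also changed over 1.5-fold, preset key members of each list described, and up to 4 further members per direction with the smallest p. A named gene whose call was lost without 1 library or within the high run of S numbers is given with that result. Tsku, Mthfd1l, Nrep, Tnnc1, Lama3, Fasn, Cyp2b10, Hsp90b1, Creld2, Pdia6 and Dnajc3 were chosen after their values were seen. Promoter sequences are RefSeq's on GRCm38.p6, from the first listed start of each symbol. Some genes that this rule names are not reported here, though list counts hold them. The libraries of mice moved from the CDAHFD to a high-fat diet were not used here.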

Additional observations from a re-analysis of the deposited data

Results flagged for a closer look

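In 46 of the 598 groups of mice checked, 2 for each of the 299 genes, 1 mouse stood far from the other mice of its group, with a gap to the nearest mouse that was more of the group's whole range than Dixon's 95% critical value for a group of its size. Chance alone flags about 1 group in 20, and 7.69% were flagged. Gaps and ranges were taken on the log2(CPM + 0.5) scale, and the number after each gene is the gap as a share of the range on that scale, so it does not follow from the CPM values given. Fc mouse 5 was the highest of its group for Fga (0.58), Fgb (0.62), Fgg (0.64), Hp (0.77), Lbp (0.69), Lcn2 (0.55), Lrig1 (0.59), Orm2 (0.75) and S100a8 (0.72). All but Lrig1, which lowers growth factor receptors, are acute phase genes or, for S100a8, a neutrophil gene. For Hp, haptoglobin, it was at 7880.2 CPM with the next Fc mouse at 3499 CPM, and for Lcn2, lipocalin 2, at 266.1 CPM with the next at 56.9 CPM. The same mouse was the lowest for Acot1 (0.51), Cry1 (0.69), Reln (0.54), Sh3pxd2a (0.5) and Wnt2 (0.58). Fc mouse 6 was the highest for the matrix genes Col16a1 (0.59), Col1a2 (0.77) and Dcn (0.59), with Col1a2 at 90.5 CPM and the next Fc mouse at 60.5 CPM, and the lowest for Atf5 (0.5) and Fam20a (0.62). Fc mouse 1 was the lowest for Ciart (0.59), Dgat2 (0.53), Errfi1 (0.55) and Marveld1 (0.52) and the highest for Tfrc (0.55). Ciart was at 2.13 CPM in that mouse and at 7.97 CPM in the next. Fc mouse 7 was the lowest for Cirbp (0.59) and Hmgcs1 (0.55) and the highest for Hsp90aa1 (0.54). Fc mouse 8 was the lowest for Adgre1 (0.53), Fos (0.49) and Smad3 (0.6) and the highest for Ndufv2 (0.54), and Fc mouse 4 the highest for Insr (0.55). 

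Among the Fc(mML1)B3 mice, mouse 1 was the lowest for Acot3 (0.6), Gsta1 (0.57), Per1 (0.62), Pklr (0.63) and Srebf2 (0.62) and the highest for Gjb1 (0.59), with Pklr at 251.0 CPM and the next mouse at 343.9 CPM. Mouse 5 was the highest for Cyp2c29 (0.7), mouse 3 for Npas2 (0.57) and mouse 7 for Ndufs1 (0.59), Ppara (0.63) and Spry4 (0.58), and mouse 7 was the lowest for Pdgfrb (0.6). Mouse 6 was the lowest for Cd44 (0.64) and S100a8 (0.62). What sets these mice apart was not tested.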

How the results depend on the processing

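The 4 counts of genes, 1024 lower and 1162 higher at an adjusted p below 0.05 and the 178 lower (1.31%) and 1.05% higher with a fold change over 1.5 as well, kept within 1.5 times their values with DESeq2, limma-voom, other normalizations, other filters and equal depth. With DESeq2, 1177 were lower and 1291 higher, and 190 were lower with the fold change. Leaving out 1 library in turn gave 818 to 1070 lower, 907 to 1178 higher, 153 to 202 lower with the fold change and 127 to 156 higher with it. At an adjusted p below 0.01, 577 genes rose and 462 fell, while testing against the 1.5-fold change itself left 12 that fell and 24 that rose. Within the high run of S numbers, 424 genes fell, 518 rose and 103 fell with the fold change, and with the run as a covariate 417, 522 and 104. The cause of these decreases was not tested. Of the 942 genes passing within the high run, 850 also passed over all mice, and no gene passing in both had the opposite direction in any alternative. Of the 171 named genes that passed, 60 did not pass within the high run and 56 did not with the covariate. With the replicate block, 583 genes were lower and 713 higher. The block did not follow a pairing: same-numbered mice deviated with correlations of -0.197 to -0.00827, none of 7 pairs was over 0.1, and 0 Fc(mML1)B3 mice correlated best with the Fc mouse of their number. Of the named genes that passed, 146 of 171 stayed past the threshold in all fits without 1 library. Depth limits the lowest genes, such as Npas2 and Cyp2b10, whose Fc medians were 0.885 and 0.401 CPM, or 20 and 10 reads.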

Other observations

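The counts of the lists below stand beside 8.56% higher and 7.55% lower over all genes. Of the 27 genes of the growth hormone and IGF axis, 5 rose and 3 fell, with 2 and 2 within the high run. Igf1, the hormone that the liver makes under growth hormone, ranged from 639.0 to 779.6 CPM (median 679.3) in the Fc group and from 757.0 to 914.9 CPM (median 836.6) in the Fc(mML1)B3 group (log2 fold change 0.25, SE 0.05, adjusted p = 0.00282), and Igfbp4, a binding protein of IGF, rose by 0.35 without overlap (adjusted p = 8.87e-05). Stat5b, the factor that carries the growth hormone signal, ranged from 47.03 to 64.7 CPM (median 51.96) in the Fc group and from 39.6 to 42.7 CPM (median 41.5) in the Fc(mML1)B3 group and fell without overlap (log2 fold change -0.39, SE 0.06, adjusted p = 6.94e-05). The growth hormone receptor Ghr, its feedback inhibitor Socs2, the repressor Bcl6 and the male-specific Hsd3b5 did not pass, at 0.14, 0.06, 0.53 and 0.13 (adjusted p = 0.0765, 0.919, 0.469 and 0.833), and the male urinary protein Mup3 rose by 0.25 (adjusted p = 0.031, lost in 5 of the 16 fits without 1 library, with adjusted p up to 0.0736). Glucocorticoid targets moved both ways, with 5 of 22 higher and 2 lower, and 3 and 1 within the high run. The number higher was also 3 in 10 of the 16 fits without 1 library, and the number lower was 1 in 5 of them. Fkbp5, a chaperone partner of the glucocorticoid receptor, ranged from 18.3 to 36.6 CPM (median 25.9) in the Fc group and from 32.6 to 45.3 CPM (median 39.8) in the Fc(mML1)B3 group (log2 fold change 0.63, SE 0.11, adjusted p = 0.00062), whereas Klf9 fell by 0.62 (adjusted p = 0.0116) and Tsc22d3, Sgk1 and the receptor gene Nr3c1 did not pass (0.55, 0.00 and 0.07, adjusted p = 0.094, 0.994 and 0.434). Within the high run, Fkbp5 was at 0.74 and Klf9 at -0.69 (adjusted p = 0.000822 and 0.0195). Mup3 did not pass in the high run, at 0.31 (adjusted p = 0.0734).

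The list of chaperones of the cytosol and mitochondria, which also holds the cold-induced Rbm3 and Cirbp, was mostly above 0. The list of the unfolded protein response and ATF4, which holds chaperones of the endoplasmic reticulum and ATF4 targets, was mostly below it. The difference between the lists was not tested. Of the 21 genes of the first list, 5 rose and 18 were above 0, among them the HSP40 protein Dnaja1 (0.40), the mitochondrial pair Hspd1 and Hspe1 (0.20 and 0.20) and Rbm3 (0.28), with adjusted p of 0.00184, 0.0108, 0.0174 and 0.0178. This first list had 1 gene higher within the high run, where none of these 4 passed (adjusted p from 0.112 for Hspd1 to 0.266 for Hspe1), and Hspa1b, Hsp90aa1 and Cirbp did not pass over all mice (0.15, -0.06 and 0.09, adjusted p = 0.743, 0.724 and 0.581). In phosphatidylcholine synthesis, which the CDAHFD starves of choline, Pcyt1a, the rate-limiting enzyme, rose by 0.33 and Pemt, which makes the lipid without choline, by 0.16 (adjusted p = 0.000407 and 0.0136), while choline kinase, Chka, ranged from 29.6 to 51.7 CPM (median 33.8) in the Fc group and from 15.7 to 32.2 CPM (median 21.2) in the Fc(mML1)B3 group (log2 fold change -0.61, SE 0.14, adjusted p = 0.00656). Pericentral genes rose in 5 of 23 cases (2 within the high run and 3 to 7 in the fits without 1 library) and fell in 2 (0 within the high run and 1 or 2 in the fits without 1 library), beside 8.56% higher and 7.55% lower over all genes. Rhbg, the ammonium channel of that zone, was at 0.44 (adjusted p = 0.000924) and Nt5e at -0.71 (adjusted p = 0.0123). Of 19 markers of T and NK cells, Zap70, the T cell receptor kinase, rose by 0.53 without overlap (adjusted p = 0.000293), and Cd3e, which defines T cells, was at 0.01 (adjusted p = 0.99). Zap70 was at 10.1 to 13.2 CPM in the Fc group and 13.6 to 21.3 CPM in the Fc(mML1)B3 group. Cd3e was lower, at 0.677 to 1.48 and 0.495 to 1.66 CPM, and which cells hold the Zap70 RNA was not tested. Pemt, Chka and Nt5e did not pass in the high run, at 0.11, -0.45 and -0.74 (adjusted p = 0.249, 0.106 and 0.0655).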
